A study of Mus musculus with 2 samples.

Results

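CD8 T cells that carried the transcripts of DNA synthesis and few transcripts of mitosis were examined in the scRNA-seq libraries made from donor T cells of recipient spleens at days +7 and +14 after allogeneic hematopoietic cell transplantation (allo-HCT). The cells were chosen by measured values. A CD8 T cell was a barcode with at least 3 UMIs (unique molecular identifiers, each of which stands for 1 captured RNA molecule) over Cd3d, Cd3e, Cd3g, Trac, Trbc1 and Trbc2, at least 2 UMIs of Cd8a and Cd8b1, and 0 UMIs of Cd4 and Foxp3. The S phase gate then took those with at least 15 UMIs of Mcm2, Mcm3, Mcm4, Mcm5, Mcm6, Pcna, Tyms, Rrm2 and Slbp per 10000 UMIs and under 5 of Ccnb1, Ccnb2, Cdc20, Cenpf, Ube2c and Plk1. It held 1844 cells, 723 at day +7 and 1121 at day +14, of 11406 CD8 T cells and 14973 kept cells. The other CD8 T cells were 5031 with 5 or more of the second sum per 10000 UMIs, called the G2/M gate here, and 4531 below both limits.

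Both libraries were made in the fully allogeneic C57BL/6 into BALB/c model, in which irradiated recipients were given purified T cells from donor spleens, which the labels call naïve. The sorted cells were CD45+, H2Kb+, H2Kd- and TCRβ+, which marks them as donor T cells, the library names carry PBS, and the labels name neither a drug nor a deletion for these cells. There was 1 library per day, from pooled spleens, so that mice, day and library cannot be told apart and no test was possible. The titles and library names give the day, whereas the protocol text places the sort on day +7 in each case. Brackets hold exact 95% intervals, which cover counting error and not the differences between mice. The libraries held 7355 and 8043 barcodes with 87124828 and 84233811 UMIs, and 7179 and 7794 barcodes passed the filters. The 2 libraries shared 20 barcode sequences, of which 2 in each were S phase cells and 0 were S phase cells in both.

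S phase is the part of the cell cycle in which the genome is copied. In late G1 the E2F factors switch on genes for the MCM helicase, which opens the double helix at licensed origins, for PCNA, the clamp that holds the polymerases on DNA, and for ribonucleotide reductase and thymidylate synthase, which supply deoxynucleotides. The new DNA is packed at once with newly made histones, which come from clusters of replication-dependent genes whose mRNAs mostly end in a stem-loop bound by SLBP in place of a poly(A) tail. Donor CD8 T cells divide many times in the spleen of an allogeneic recipient before they enter the target organs of graft-versus-host disease.

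The sequences upstream of the genes that carried the gate are shown because the replication genes are known targets of E2F factors. In the RefSeq promoters of the GRCm38.p6 build, the 250 bases before the start of 8 of the 9 S phase genes of the gate were found by symbol. The letters TTTCCCGC, TTTCGCGC, TTTGCCGC and TTTGGCGC were searched on both strands, and capitals mark the matches. Mcm5 lies at chr8:75109259-75109508 on the plus strand, with overlapping matches of TTTCGCGC on the strand shown and TTTGGCGC on the other, and Pcna lies at chr2:132253181-132253430 on the minus strand, with 0 matches.
Mcm5: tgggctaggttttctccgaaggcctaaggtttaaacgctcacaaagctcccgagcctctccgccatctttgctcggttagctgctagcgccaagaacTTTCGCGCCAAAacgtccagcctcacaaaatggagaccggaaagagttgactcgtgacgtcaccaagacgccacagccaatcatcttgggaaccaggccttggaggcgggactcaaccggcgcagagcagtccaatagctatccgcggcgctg
Pcna: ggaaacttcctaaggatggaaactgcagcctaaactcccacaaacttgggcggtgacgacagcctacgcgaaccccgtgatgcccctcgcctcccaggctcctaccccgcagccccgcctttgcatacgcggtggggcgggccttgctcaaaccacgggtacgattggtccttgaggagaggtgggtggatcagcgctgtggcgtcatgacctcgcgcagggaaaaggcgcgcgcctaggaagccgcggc
The matches in Mcm5 ran from 153 to 142 bases before the start. Mcm6, a second subunit of the same helicase, was the other of the 8 genes with a match. The letters were found before 583 of 27025 genes (2.16%), before 5 of 14 genes of origin licensing and the helicase (35.7%), and before 2 of 17 genes of the fork polymerases, clamp loader and ligation (11.8%). They were found before 0 of 7 genes of thymidylate and deoxynucleotide synthesis, 0 of 22 mitosis genes outside the gate, 0 of 12 cytotoxic genes and 0 of 4 oxidative pentose phosphate pathway (PPP) genes. A match is a string of letters, and its absence says that these letters are not in this window.

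The gated cells were first described by the genes that chose them. Their median sum over the 9 S phase genes was 22.5 per 10000 UMIs at day +7 and 24.1 at day +14, and that of cells below both limits was 2.67 and 3.41. A median of 8 of the 9 genes was detected per S phase cell at both days, against 2 of 9 below the limits. The fewest were 4 genes at day +7 and 2 at day +14, where 11 cells had 3 or fewer and the sum could rest on as few as 2 UMIs. Pcna gave 21.8% of the S phase sum at day +7 and 21.4% at day +14, and Mcm6 12.3% and 15.7%, so that no single gene held most of it. The highest sum outside the gate was 14.98 at day +7 and 14.996 at day +14, and the lowest inside it was 15.02 and 15.01. Between 14 and 15 per 10000 lay 34 cells at day +7 and 56 at day +14, and between 15 and 16 lay 31 and 54. Among CD8 T cells that passed the S phase limit, 749 of 1472 at day +7 and 1021 of 2142 at day +14 were over the G2/M limit and were therefore left out.

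The 4 markers given for these cells were all detected in most of them. Mcm5 was at 224 UMIs per 1000000 UMIs of the pooled cells (CPM) at day +7 and 250 CPM on day +14, Pcna at 501 and 525 CPM, Tyms at 257 and 207 CPM, and Cd8b1, the beta chain of CD8, at 610 and 468 CPM. Cd8b1 had a UMI in 99.4% and 96.9% of S phase cells and Mcm5 in 93.2% and 92.8%. Their median depth was 13107 UMIs at day +7 and 10913 at day +14, close to that of the G2/M gate (12790 and 12530) and above that of cells below both limits (6939 and 5548). 

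**Figure D1:**
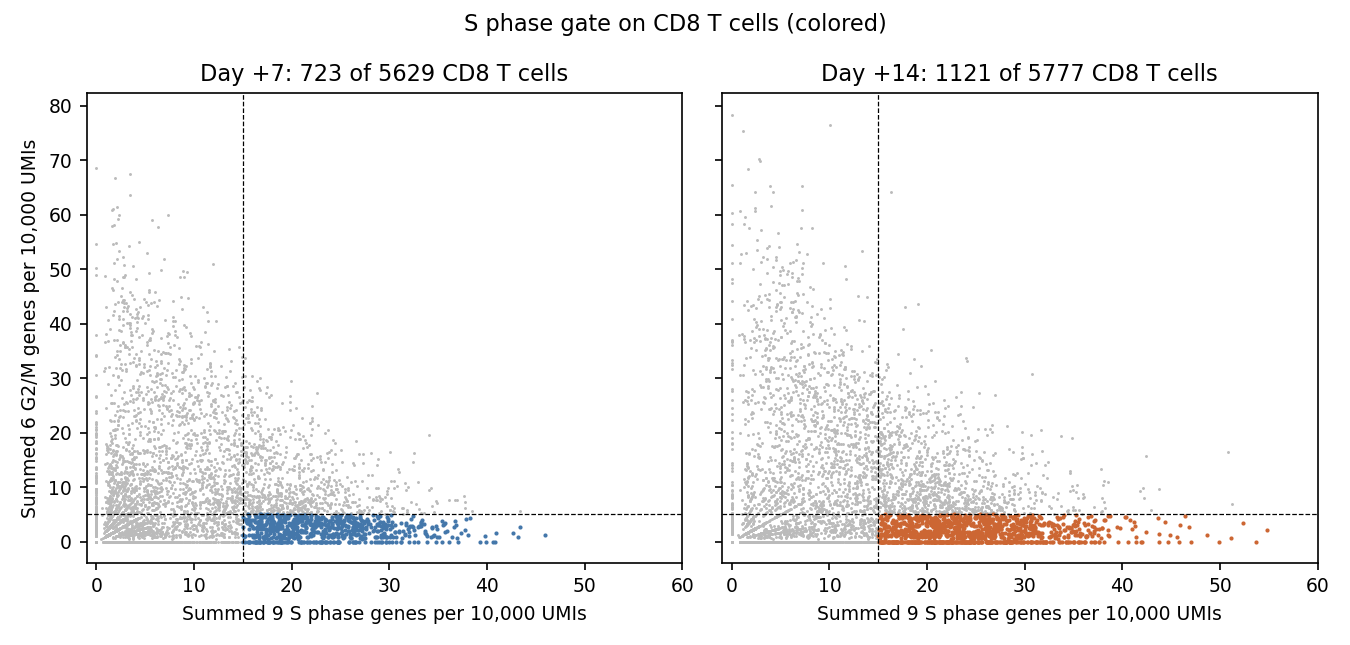
Each point is a CD8 T cell, with the summed 9 S phase genes per 10000 UMIs on the x axis and the summed 6 G2/M genes per 10000 UMIs on the y axis, and dashed lines mark the limits. The colored cells are the 723 of 5629 at day +7 and the 1121 of 5777 at day +14 in the S phase gate, and no gap separates them from the gray cells.

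A larger share of CD8 T cells was in the S phase gate at day +14. It was 12.8% [11.98, 13.7] at day +7 (723 of 5629) and 19.4% [18.4, 20.4] at day +14 (1121 of 5777). After each cell was thinned to 4000 UMIs, without 74 shallower cells of day +7 and 404 of day +14, the shares were 11.1% [10.3, 11.9] and 18.4% [17.4, 19.5]. The G2/M gate held 44.8% [43.5, 46.1] and 43.5% [42.2, 44.7] of CD8 T cells. CD4 T cells, which were not part of the gate, had an S phase share of 11.8% [8.96, 15.1] at day +7 (54 of 459) and 9.61% [7.53, 12.1] at day +14 (67 of 697). The gate is sensitive to depth cell by cell, since 66.4% of the S phase cells at day +7 and 73.3% at day +14 were still in it after thinning.

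Cyclins and mitosis genes that the gate did not use placed the cells in the cycle. In cells thinned to 4000 UMIs, Ccne1 or Ccne2, the cyclin E genes that drive entry into S phase, had a UMI in 46.2% [42.5, 49.9] of S phase cells at day +7 and 38.5% [35.6, 41.5] at day +14. The shares were 18.5% and 19.8% in the G2/M gate and 8.79% and 8.49% below both limits. Cdc6 or Cdt1, which load the helicase onto origins, had a UMI in 35.6% and 37.9% of S phase cells against 14.6% and 17.4% in the G2/M gate. Ccna2, the cyclin A gene whose product acts from S phase to mitosis, was the reverse, with 20.2% and 19.8% of S phase cells against 45.5% and 52.1% of the G2/M gate. Top2a, the topoisomerase that untangles sister chromatids, had a UMI in 63.5% and 60.6% of S phase cells, 54.8% and 68.4% of the G2/M gate, and 7.45% and 13.9% of cells below both limits. These cells were taken from the same libraries by a related gate, so the shares are a description of what was gated.

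Against CD8 T cells below both limits, the S phase cells were described by log2 ratios of their CPM (for single genes after adding 1 CPM). At least 2-fold higher were 492 of 6584 genes with a mean of 10 CPM or more at day +7 (7.47%) and 446 of 7069 at day +14 (6.31%). At least 2-fold lower were 90 genes at day +7 (1.37%) and 137 at day +14 (1.94%). The gate used this contrast, so nothing is read from the counts of listed genes. Of origin licensing and helicase genes, 14 of 16 were at least 2-fold higher at day +7 and 13 of 16 at day +14, with medians of 2.20 and 2.05 beside medians of 0.05 and 0.0004 over all genes tested. Of the fork polymerases, clamp loader and ligation genes, 21 of 22 were at least 2-fold higher at each day, with medians of 2.17 and 1.94. Lig1, the ligase that joins Okazaki fragments, had ratios of 2.76 and 2.58. Of thymidylate and deoxynucleotide synthesis, 6 of 7 were at least 2-fold higher at each day. Samhd1, which breaks deoxynucleotides down, had ratios of -0.56 and -0.72.

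Histones stood highest. Of replication-dependent histone genes, 36 of 38 were at least 2-fold higher in S phase cells at day +7 and 27 of 29 at day +14, with medians of 3.13 and 2.84. The linker histone gene Hist1h1b was at 2193 CPM on day +7 and 1191 CPM on day +14 and had ratios of 4.47 and 4.25. By the rule for named genes, the 10 highest were 6 histone genes (Hist1h1b, Hist1h2ab, Hist1h2ae, Hist1h1a, Hist1h2ap and Hist1h3c) and Esco2, Rad51ap1, Fbxo5 and Clspn. Esco2, which acetylates cohesin so that sister chromatids are held together, had ratios of 4.20 and 3.76. Rad51ap1, which acts in homologous recombination, had ratios of 3.63 and 3.74. Fbxo5 encodes EMI1, which keeps the anaphase-promoting complex off until mitosis, and had ratios of 3.69 and 3.61. Clspn, the claspin of the replication checkpoint, had ratios of 3.38 and 3.23.

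The 5 lowest were Btg1, Mxd4, Ypel3, Ccl5 and Gm30054. Btg1, an antiproliferative gene of resting lymphocytes, had ratios of -1.72 and -1.70, and Mxd4, an antagonist of MYC, had -1.55 and -1.92. Ccl5, a chemokine of effector CD8 T cells, was at 1631 and 5056 CPM in S phase cells and had ratios of -1.73 and -1.44. Glycolysis and the oxidative PPP had smaller ratios than the replication lists. Summed over the list, the log2 ratio was 0.05 [-0.02, 0.12] at day +7 and 0.05 [-0.01, 0.11] at day +14 for the oxidative PPP, the branch of glucose metabolism that yields NADPH and ribose. It was 0.52 [0.50, 0.54] and 0.39 [0.38, 0.40] for glycolysis. Of the folate and serine pathway genes, which supply the methyl group of thymidine, 7 of 8 at day +7 and 6 of 8 at day +14 were at least 2-fold higher, and of purine and pyrimidine synthesis 6 of 18 and 8 of 18 were.

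The days were then compared within S phase cells, which the gate did not use except through its own genes. At least 2-fold higher at day +14 were 110 of 6857 genes with a mean of 10 CPM or more (1.6%), and at least 2-fold lower were 106 (1.55%). With scaling by the median ratio of 6735 genes the counts were 82 and 131. That scaling lowers log2 ratios without an added CPM, such as those of list sums, by 0.12, which is close to the median of 0.13 over the genes tested. With 1 CPM added the shift is smaller for genes near 0 CPM, such as 0.056 for Tff1. The calls rest on 1 library per day and have no replicate check. Brackets beside the log2 ratio of a single gene are those of its ratio without the added CPM.

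Within the S phase gate, the replication machinery was at nearly the same level on both days. Cells of both days passed the same limit on genes of this machinery, so its level is a description of what was gated. Origin licensing and helicase genes summed to 1317 CPM on day +7 and 1323 CPM on day +14, a log2 ratio of 0.01 [-0.03, 0.04], which is -0.12 with scaling by the median ratio. Of its 18 genes, 0 were 2-fold higher or lower, and the single genes lay between -0.37 and 0.28. Mcm7, the sixth helicase subunit and not part of the gate, was at 288 and 303 CPM. Fork polymerases, clamp loader and ligation genes summed to 2918 and 2928 CPM, a log2 ratio of 0.01 [-0.02, 0.03], and 0 of 22 were 2-fold higher or lower. Thymidylate and deoxynucleotide synthesis genes summed to 1636 and 1675 CPM, a log2 ratio of 0.03 [0.01, 0.06] that turns to -0.09 with scaling by the median ratio. Dut, which keeps uracil out of DNA, was at 891 and 901 CPM. In the G2/M gate the origin licensing sum had a log2 ratio of 0.16 [0.14, 0.18], the fork sum 0.11 and the deoxynucleotide sum 0.15. Below both limits these 3 sums had 0.07, 0.12 and 0.14. Genes of replication stress and repair summed to 998 and 1042 CPM (0.06 [0.03, 0.10]), of chromatin maintenance at the fork to 5683 and 5153 CPM (-0.14 [-0.16, -0.13]), and of the folate and serine pathways to 565.5 and 635.5 CPM (0.17 [0.12, 0.22]), with 0 of 16, 0 of 12 and 0 of 8 at least 2-fold apart. With scaling by the median ratio the repair sum lies below 0.

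Genes of the gate itself lay between -0.31 and 0.44. Mcm6 was at 283 CPM on day +7 and 385 CPM on day +14, a log2 ratio of 0.44 [0.38, 0.51], and Tyms had -0.31 [-0.38, -0.23]. The gate fixes the lower limit of their sum at both days, so their sum is no finding. Mitosis genes outside the gate summed to 2112 and 1980 CPM, a log2 ratio of -0.09 [-0.12, -0.07], with 0 of 25 at least 2-fold higher or lower. Ccne1 was at 99.4 and 81.3 CPM with a log2 ratio of -0.29 [-0.41, -0.17], and Ccnd2, the cyclin D2 gene of the G1 response to growth factors, was at 62.9 and 121 CPM with 0.93 [0.81, 1.08]. Over the 22 tested genes of E2F factors, G1 and S cyclins, their kinases and inhibitors, the median was 0.11. These genes lay between -0.76 and 0.93, beside a median of 0.13 over all genes tested, and 0 were at least 2-fold apart.

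Of the lists of DNA synthesis described here, the replication-dependent histones were the one with genes at least 2-fold apart between days. Their transcripts summed to 10021 CPM in S phase cells at day +7 and 3593 CPM on day +14, a log2 ratio of -1.48 [-1.50, -1.46]. All of the 40 histone genes with a mean of 10 CPM or more were lower at day +14, and 34 were at least 2-fold lower, with a median of -1.56 and a range from -3.07 to -0.67. This list was made from a symbol pattern, and its lower level at day +14 was known from earlier results of these libraries. Most histone mRNAs of this kind lack a poly(A) tail, and whether the 2 libraries captured them equally was not tested. The linker histones H1 summed to 3921 and 1811 CPM, a log2 ratio of -1.11 [-1.14, -1.09], which was smaller in size than those of the 4 core classes. H2A had 2462 and 654 CPM (-1.91), H2B 1010 and 305.5 CPM (-1.73), H3 937 and 293 CPM (-1.68) and H4 1690 and 529 CPM (-1.68).

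The histone gene with the most UMIs of each class was lower at day +14. Hist1h1b had a log2 ratio of -0.88 [-0.91, -0.85]. The H2A gene Hist1h2ae was at 722 and 214 CPM (-1.75) and the H2B gene Hist1h2bj at 226 and 41.9 CPM (-2.40). The H3 gene Hist1h3e was at 340 and 86.0 CPM (-1.97) and the H4 gene Hist1h4d at 1310 and 387 CPM (-1.76). Histone copies are nearly identical in sequence, so a read may not be assigned to the right copy or to any. The class sums are therefore given beside the single copies, and reads lost to both were not measured. Slbp, whose product binds the histone stem-loop, was at 246 and 269 CPM (0.13 [0.06, 0.20]), and Nasp, a histone chaperone, at 286 and 303 CPM (0.08 [0.01, 0.15]).

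As a sum over pooled cells, the difference was also seen outside S phase. The histone sum was 10300 and 4802 CPM in the G2/M gate, a log2 ratio of -1.10 [-1.11, -1.09], and 1150 and 460.5 CPM below both limits, with -1.32 [-1.36, -1.28]. Within each day, the ratio of S phase cells to cells below both limits was 3.12 [3.10, 3.14] at day +7 and 2.96 [2.93, 3.002] at day +14 for the same sum.

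In cells thinned to 4000 UMIs, histone UMIs were spread widely within the S phase gate. At day +7 the 10th, 25th, 50th, 75th and 90th percentiles were 3, 6, 30, 65 and 96 UMIs per S phase cell, and at day +14 they were 1, 2, 6, 23 and 35. Cells without a histone UMI made up 1.11% and 8.76% of S phase cells. In the G2/M gate the median was not lower at day +14, with 9 UMIs at day +7 and 11 at day +14. The 75th percentile of that gate was 75 and 32 UMIs. Below both limits the median was 3 UMIs at day +7 and 1 at day +14, so that S phase cells under the 25th percentile lay near the level of cells outside the cycle gates on both days.

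**Figure D2:**
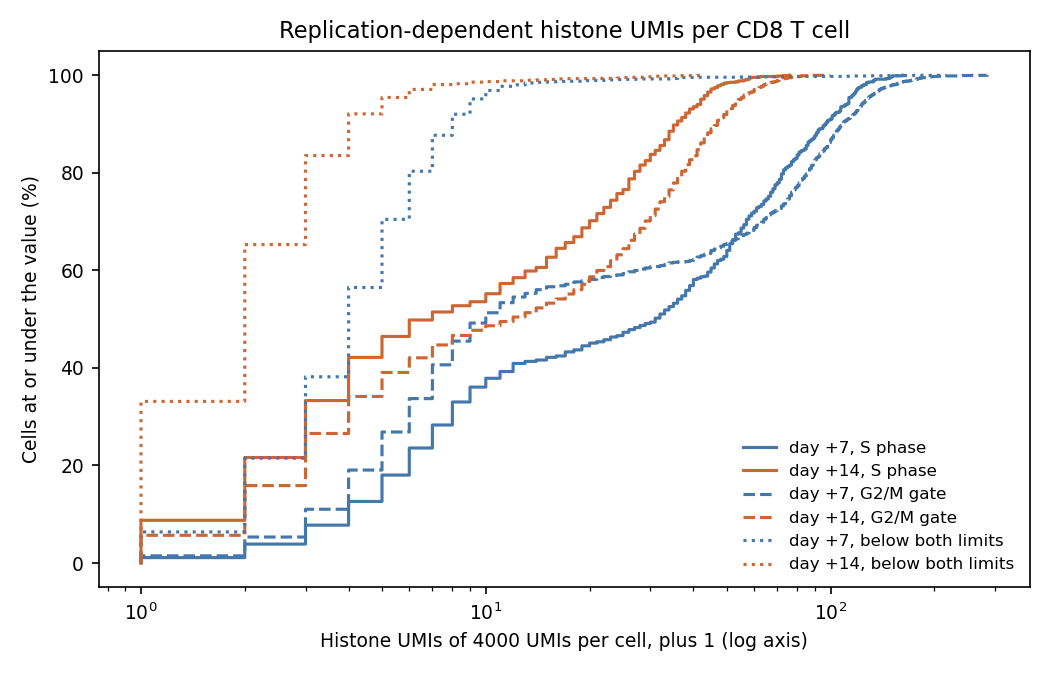
Cumulative share of CD8 T cells (y axis, percent) by histone UMIs among 4000 UMIs per cell plus 1 (x axis, log scale), for S phase cells (solid), the G2/M gate (dashed) and cells below both limits (dotted) at day +7 (blue) and day +14 (orange). The S phase curve passes its median at 30 UMIs at day +7 and 6 UMIs at day +14.

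S phase cells of each day were then ordered by their histone share and divided into tertiles, a split chosen after the values were seen. Histones were at 1124, 7759 and 20061 CPM in the lowest, middle and highest tertile at day +7, of 241 cells each, and at 339, 2098 and 7262 CPM on day +14, of 374, 374 and 373 cells. Ccna2 was at 30.4, 77.9 and 105 CPM on day +7 and 18.7, 56.1 and 123 CPM on day +14, a log2 ratio of the highest over the lowest tertile of 1.79 [1.45, 2.14] and 2.72 [2.36, 3.11]. Top2a had 1.84 [1.69, 1.997] and 1.84 [1.72, 1.97], and Cdk1, the mitotic kinase, had 1.56 [1.32, 1.81] and 1.58 [1.37, 1.79]. Rrm2, the S phase subunit of ribonucleotide reductase and a gene of the gate, had 1.09 [0.95, 1.24] and 1.61 [1.46, 1.76].

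The helicase subunits Mcm2 to Mcm7 were nearly level across tertiles, with -0.03 [-0.09, 0.03] at day +7 and -0.07 [-0.12, -0.02] at day +14. Of these, Mcm2 to Mcm6 are genes of the gate, which holds the sum of its genes above a limit in every tertile. The level of the helicase sum across tertiles is therefore a description of what was gated. Cdc6 was lower in the highest tertile at day +7, with -0.55 [-0.85, -0.25], and had 0.01 [-0.25, 0.27] at day +14. Ccne2 had 0.34 [0.05, 0.64] and 0.81 [0.51, 1.11]. Median depth was 11175, 15461 and 13821 UMIs across the tertiles at day +7 and 8747, 11325 and 12820 at day +14. The median sum of the 6 G2/M genes of the gate also rose, with 1.3, 2.7 and 2.8 per 10000 UMIs at day +7 and 0.22, 1.7 and 2.8 at day +14. The part of depth and of the G2/M sum in these ratios was not tested.

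**Figure D3:**
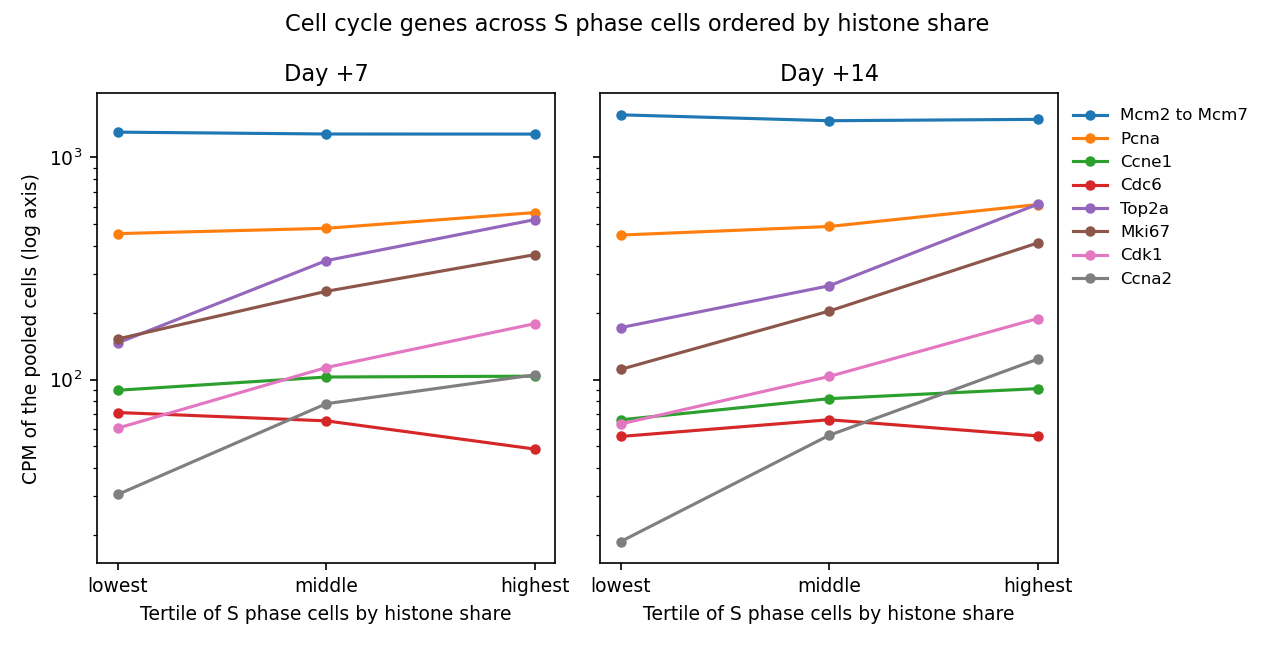
CPM of pooled S phase cells (y axis, log scale) in the lowest, middle and highest tertile of histone share (x axis) at day +7 and day +14, with a line for each gene and for the sum of Mcm2 to Mcm7. Ccna2, Cdk1, Top2a and Mki67 are higher in the highest tertile than in the lowest on both days, and the helicase line is nearly flat. Pcna and Mcm2 to Mcm6 are genes of the gate.

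As sums over their genes, glycolysis and the oxidative PPP were higher at day +14. Glycolysis genes summed to 5133 CPM on day +7 and 7428 CPM on day +14, a log2 ratio of 0.53 [0.52, 0.55], and 2 of 18 were at least 2-fold higher, with a median over the genes of 0.60 beside 0.13 over all genes tested. Slc16a3, the lactate exporter MCT4, was at 9.22 and 51.6 CPM (2.36). Ldha, which makes lactate, was at 790 and 1204 CPM (0.61 [0.57, 0.65]), and Gapdh at 1933 and 2400 CPM (0.31 [0.29, 0.34]). The same sum had a log2 ratio of 0.62 in the G2/M gate and 0.66 below both limits, so the day difference was present in each class of CD8 T cell.

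The oxidative PPP, the pathway at the center of the study, summed to 268 CPM on day +7 and 323 CPM on day +14 in S phase cells, a log2 ratio of 0.27 [0.20, 0.34], which is 0.15 with scaling by the median ratio. Pgd, which encodes 6PGD, was at 52.5 and 62.4 CPM (0.24 [0.09, 0.40]). Pgls, the lactonase before it, was at 195.5 and 242 CPM (0.31 [0.23, 0.39]), and G6pdx, which encodes the entry enzyme, at 20.01 and 18.2 CPM (-0.13 [-0.41, 0.13]). G6pd2 had 0 UMIs in S phase cells, which allows up to 0.279 CPM on day +7 and 0.214 CPM on day +14. The sum had a log2 ratio of 0.16 [0.13, 0.20] in the G2/M gate and 0.27 [0.21, 0.33] below both limits. Tkt, a transketolase of the non-oxidative branch, was at 228 and 269 CPM (0.24 [0.17, 0.31]), and Taldo1, the transaldolase of that branch, was at 284 and 269 CPM (-0.08 [-0.15, -0.01]). The 4 genes of the branch summed to 576 and 606.5 CPM, a log2 ratio of 0.08 [0.03, 0.12], which lies below 0 with scaling by the median ratio. Nme2, a nucleoside diphosphate kinase, was at 1543 and 1222 CPM (-0.34 [-0.37, -0.31]), and the sum of purine and pyrimidine synthesis had -0.15 [-0.17, -0.13], with a median over its genes of 0.15 beside 0.13 over all genes tested.

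At day +14 the summed cytotoxic genes were lower and the summed chemokine genes higher. Cytotoxic genes summed to 7893 CPM on day +7 and 3863 CPM on day +14, a log2 ratio of -1.03 [-1.05, -1.01], but 4 of 11 lay above 0. The median over these genes was -0.29 beside 0.13 over all genes tested, and 3 were at least 2-fold lower. Gzma, the granzyme A gene, was at 3535 and 212 CPM (-4.06), with a UMI in 90.7% and 26.9% of S phase cells. Gzmb was at 1561 and 524 CPM (-1.57) and Gzmc at 29.2 and 2.78 CPM. Nkg7, which acts in granule release, was at 1793 and 2219 CPM (0.31 [0.28, 0.33]), and Gzmk at 89.8 and 144 CPM (0.68 [0.57, 0.80]). Of the 5 cytokine and chemokine genes with a mean of 10 CPM or more, 4 were at least 2-fold higher at day +14, against 1.6% of all genes tested. Their median was 1.49 beside 0.13 over all genes tested. The 4 were Ccl5 at 1631 and 5056 CPM (1.63), Ccl3 at 115 and 349 CPM (1.59), Ccl4 at 255 and 545 CPM (1.09) and Xcl1 at 46.4 and 132 CPM (1.49). A single cell gave 32.2% of the Ccl3 UMIs and 25.3% of the Xcl1 UMIs at day +7. Ifng was at 154 and 150 CPM (-0.04 [-0.13, 0.05]).

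Genes of T cell state differed in both directions. Eomes, a T-box factor of memory and exhausted CD8 T cells, was at 18.8 and 83.0 CPM (2.09), whereas Tbx21, its relative in effector cells, was at 62.6 and 37.3 CPM (-0.73 [-0.91, -0.58]). Tox was at 68.0 and 211 CPM (1.62), Cd160 at 134 and 265.5 CPM (0.98 [0.90, 1.08]), Lag3 at 87.3 and 132 CPM (0.59) and Pdcd1, which encodes PD-1, at 193 and 284 CPM (0.56). Havcr2, which encodes TIM-3, was at 73.0 and 56.3 CPM (-0.37 [-0.52, -0.23]). Of the inhibitory receptors and Tox list, 1 of 8 was at least 2-fold higher, with a median of 0.51 beside 0.13 over all genes tested. Of naive and stem-like memory genes, 2 of 6 were at least 2-fold lower, against 1.55% of all genes tested, with a median of -0.58 beside 0.13. These were Il7r at 28.0 and 6.13 CPM (-2.03) and S1pr1, the receptor for exit from lymphoid organs, at 66.7 and 28.2 CPM (-1.21).

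Receptors of IL-2 were not alike. Il2ra, the inducible alpha chain, was at 37.1 and 4.35 CPM (-2.83), Il2rb at 270 and 331 CPM (0.29 [0.23, 0.36]), and Il2rg at 177 and 136 CPM (-0.38 [-0.47, -0.29]). Tfrc, which takes up iron and is high in dividing cells, was at 24.95 and 43.0 CPM (0.76 [0.58, 1.00]). Of the early genes of receptor stimulation, Nr4a2 was at 44.0 and 130 CPM (1.54) and Egr1 at 4.66 and 17.6 CPM (1.72), while Cd69 was at 56.4 and 25.8 CPM (-1.10).

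The 10 genes with the highest ratios of day +14 over day +7, at 50 CPM or more in the higher day, were Tff1, Cd7, Ikzf2, Slc16a3, Eomes, Igkc, Glcci1, Msi2, Tspan3 and Ccl5. Cd7, a surface protein of T and NK cells, was at 34.9 and 643 CPM (4.17), with a UMI in 30.4% and 89.6% of S phase cells. Ikzf2, which encodes Helios, was at 13.4 and 85.2 CPM (2.58). Tff1, a trefoil peptide known from gastric mucosa, was at 0.838 and 52.5 CPM (4.86) and had a UMI in 0.968% and 22.7% of cells. Msi2, an RNA-binding protein, was at 27.6 and 94.4 CPM (1.74), Tspan3, a tetraspanin, at 19.1 and 64.5 CPM (1.70), and Glcci1 at 13.0 and 50.2 CPM (1.87).

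The 10 genes with the lowest ratios were Ifitm1, Ifitm2, Ifitm3, Gzma, Fcer1g, Hist1h2ap, Chil3, Ccr2, Hist1h4h and Hist1h2bj. Ifitm1, an interferon-induced transmembrane protein that restricts viral entry, was at 310 and 2.42 CPM (-6.51), Ifitm2 at 204 and 3.06 CPM (-5.65), and Ifitm3 at 92.3 and 4.42 CPM (-4.11). Ifitm2 also had a UMI in 31 of 71 erythroid barcodes at day +7 after thinning to 4000 UMIs, and the part of free RNA in its ratio was not tested. Fcer1g, the signaling chain of Fc receptors, was at 171 and 13.7 CPM (-3.55). Ccr2, a chemokine receptor for entry into inflamed tissue, was at 50.3 and 7.84 CPM (-2.54). Cd7, Ifitm1, Ifitm2, Ifitm3, Gzma and Eomes differed in the same direction in the G2/M gate and below both limits, with -5.36 and -3.93 for Ifitm1 and 3.81 and 3.06 for Cd7. Whether the size differs between the classes was not tested.

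**Figure D4:**
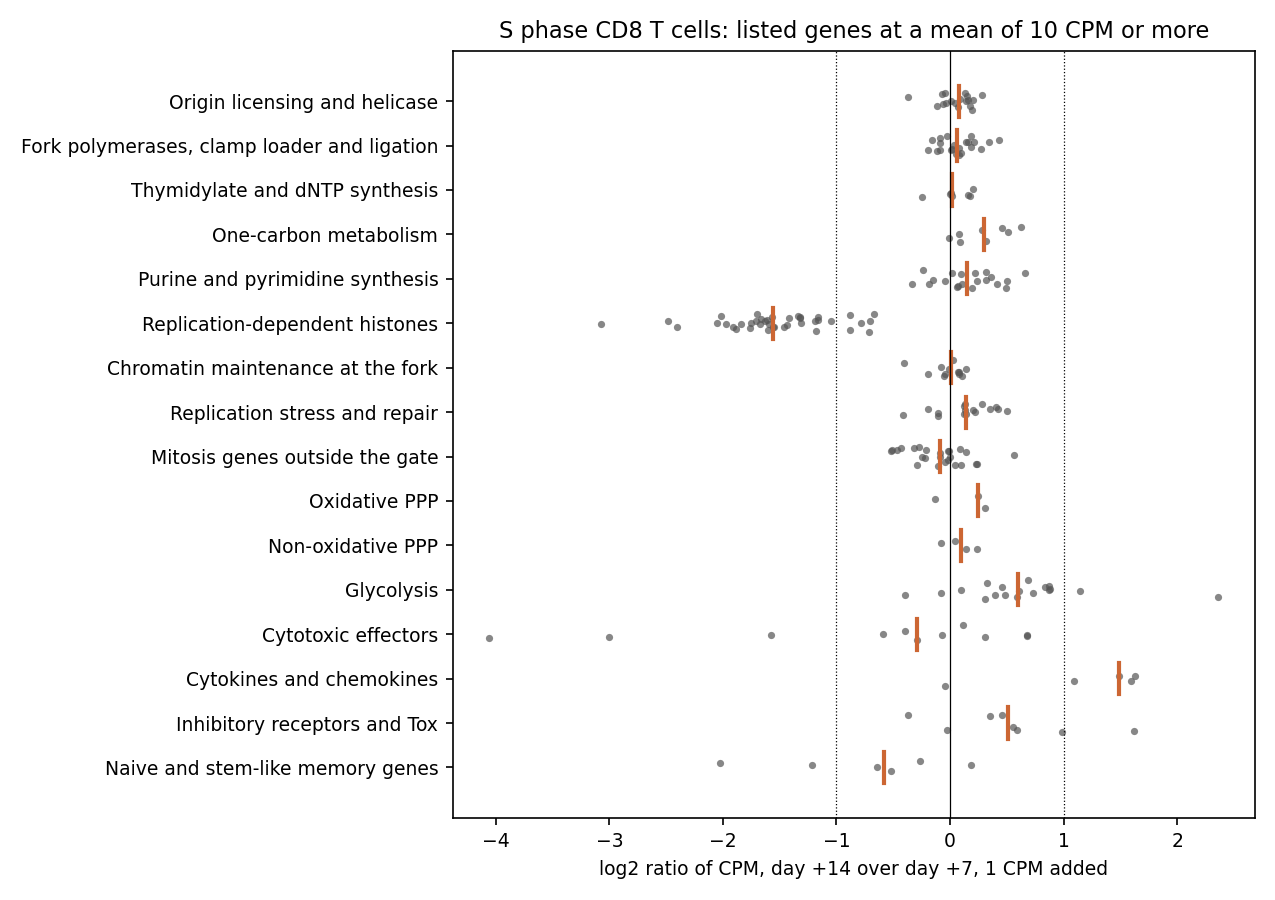
Each point is a listed gene with a mean of 10 CPM or more in S phase CD8 T cells, with the log2 ratio of day +14 over day +7 on the x axis and the list on the y axis, and the orange bar is the median of the list. Dotted lines mark 2-fold. The histone genes have a median of -1.56 and all lie below 0, whereas origin licensing genes lie between -0.37 and 0.28.

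The state of CD8 T cells was then set beside their share in S phase, in CD8 T cells with at least 4000 UMIs. Detection of each gene was read after thinning to 4000 UMIs, while the S phase gate was the one set on all UMIs. For Tcf7, the factor of stem-like T cells, the S phase share of cells with a UMI was 6.71% [3.27, 12] against 13.2% [12.3, 14.1] of cells without at day +7 and 8.76% [5.58, 13.0] against 21.0% [19.9, 22.1] at day +14. Without thinning the shares were 10.7% against 12.9% at day +7, and at day +14 the cells with a UMI had 12.5%, below the 19.4% of all CD8 T cells. Cells with a UMI of Gzmb had 13.4% [12.5, 14.4] against 8.63% [6.27, 11.5] at day +7 and 20.7% [19.4, 22.1] against 19.8% [18.0, 21.7] at day +14. For Gzma the intervals overlapped on both days, at 13.0% against 13.0% and 19.8% against 20.5%. For Slamf6 the shares were 9.85% [8.39, 11.5] against 14.1% [13.1, 15.3] and 16.9% [14.9, 19.2] against 21.4% [20.2, 22.7]. Without thinning the Slamf6 shares were 13.0% against 12.7% at day +7 and 19.0% against 19.7% at day +14. For Il7r, the IL-7 receptor of long-lived T cells, they were 9.32% [7.44, 11.5] against 13.6% [12.7, 14.6] and 14.5% [9.19, 21.3] against 20.6% [19.5, 21.7], and without thinning 11.4% against 13.3% and 19.05% against 19.4%.

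Cells with a UMI of Pdcd1 were in the S phase gate at 13.8% [12.5, 15.3] against 12.3% [11.2, 13.5] at day +7 and 21.0% [19.6, 22.5] against 19.4% [17.7, 21.2] at day +14, and for Tox the shares were 12.5% against 13.1% and 19.8% against 21.1%, with intervals that overlap. As a background for free RNA, 0 of 71 erythroid barcodes at day +7, with a median depth of 32632 UMIs against 9557 in CD8 T cells, had a UMI of Tcf7 after thinning, which allows up to 5.06%, and 3 of 71 (4.23%) had a UMI of Gzma. For Ifitm2 it was 31 of 71 (43.7%), above the 29.8% of S phase cells at day +7. Neither expression of Ifitm2 by these barcodes nor the part of free RNA in the share of S phase cells was tested. There were 5 such barcodes at day +14, which is too few for a background. The share of cells with a UMI of Tcf7 was itself small, at 1.39% and 2.01% of S phase cells and 4.48% and 8.10% of cells below both limits.

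**Figure D5:**
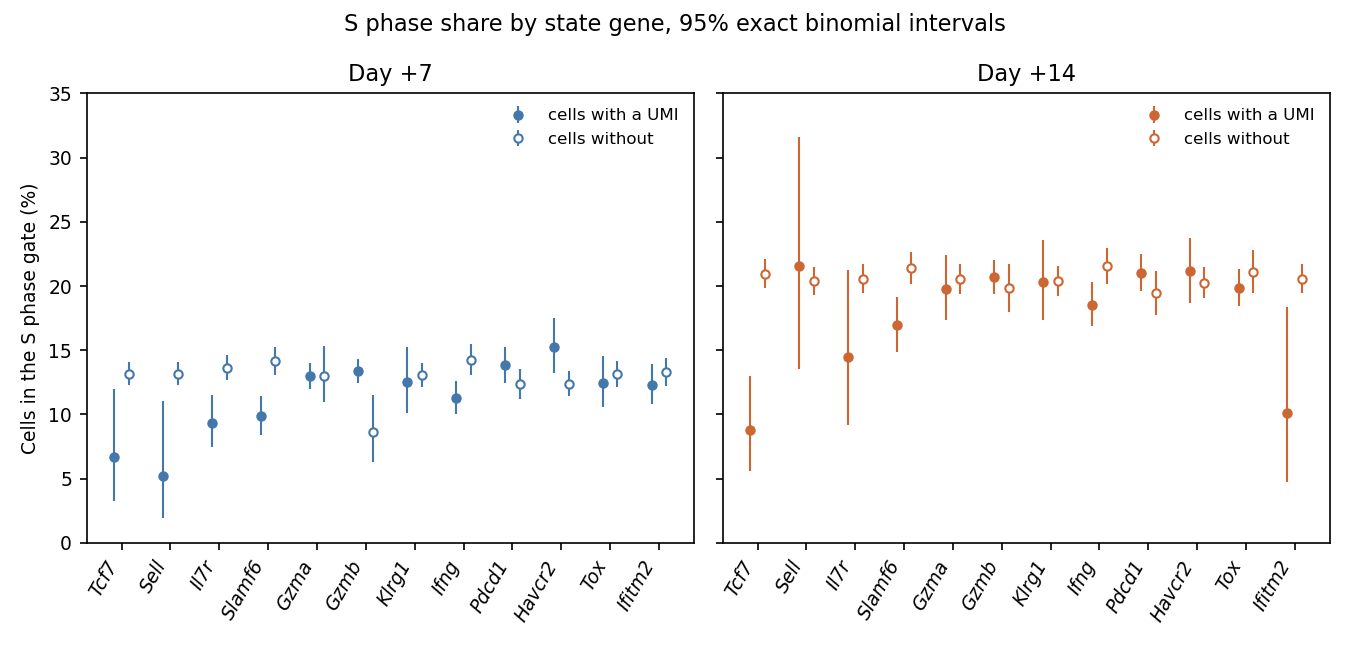
Share of CD8 T cells in the S phase gate (y axis, percent) among cells with (filled) and without (open) a UMI of each gene on the x axis, at day +7 and day +14, in cells with at least 4000 UMIs. Detection of each gene was read after thinning to 4000 UMIs and the gate on all UMIs. Bars are 95% exact binomial intervals, and the Tcf7 intervals do not overlap on either day.

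Transcripts of other lineages were measured in the same S phase cells. The 8 myeloid markers, of which 5 had a mean of 10 CPM or more, summed to 1110 CPM on day +7 and 415 CPM on day +14, whereas below both limits they summed to 546.5 and 556 CPM. A single S phase cell at each day gave 69.5% and 91.9% of the S100a8 UMIs and 74.96% and 81.6% of those of Chil3, a chitinase-like gene of myeloid cells. Without the cells that had a UMI of any of 8 other-lineage genes, Chil3 had 0.82 in place of -2.79. Such a UMI was found in 21.6% and 39.4% of S phase cells and in 16.5% and 29.2% of cells below both limits. Without those cells, 113 genes were at least 2-fold higher and 98 lower, and the histone sum had a log2 ratio of -1.50.

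Of B cell markers, Ms4a1 had 0 UMIs in S phase cells and Cd79a had 1 UMI at each day, while Igkc, an immunoglobulin light chain gene, was at 29.2 and 113 CPM (1.91) and at 23.6 and 274 CPM below both limits. Erythroid markers summed to 48.2 and 31.4 CPM, with 98.1% of the Hbb-bs UMIs at day +7 from a single cell, and NK and gamma delta markers to 2.79 and 1.28 CPM. The part of these transcripts in other results was not tested. Doublets were not removed, because Scrublet marked 0 barcodes in either library. Its highest scores, 433 barcodes at day +7 and 518 at day +14, held 7.88% and 8.12% of S phase cells against 3.10% and 1.72% of cells below both limits. Without them the S phase share was 12.6% and 19.0%.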

How the data were processed

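Donor splenic T cells were profiled by 10x Genomics scRNA-seq in 2 libraries, 1 per day. The authors deposited raw, whole-number UMI counts for each gene in each cell, made with Cell Ranger 6.1.2 on mm10 per the labels. Rows of the same symbol were summed (32285 genes, 32245 symbols). Barcodes with 500 to 7500 detected genes and at most 15% mitochondrial UMIs were kept, and no clusters were made. The members and gene lists were chosen with earlier results of these data known. UMIs were summed over cells and divided by their total (CPM). Genes with a mean of 10 CPM or more were compared, and those at least 2-fold apart were called. List sums have an exact conditional binomial interval and shares an exact binomial (Clopper-Pearson) one. PCR duplicates were collapsed by UMI, and intervals cover counting error only.

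The named genes are the 10 highest and 10 lowest between days and the 10 highest and 5 lowest in S phase against cells below both limits (at 50 CPM or more), the 3 list members with the most UMIs, and every member of lists of up to 10 genes. Some genes that the rule names are not reported here. Ccne1, Ccne2, Ccna2, Ccnd2, Cdc6, Gzmc and Gzmk were also named after their values were seen, as were the tertiles. Python 3.11.15, numpy 2.4.6, scipy 1.17.1, pandas 2.3.3, matplotlib 3.10.9, scanpy 1.11.5 (Scrublet) and anndata 0.12.19 were used. On simulated counts of the day comparison in S phase cells, with 200 of 6857 genes changed, the sign was right for 200 and 95.3% of the intervals held the true ratio. The counts were drawn independently, as the interval assumes. The simulation therefore checks the calculation and does not cover differences between cells or mice. Alternatives were other limits, thinning, scaling, an added 5 CPM, no filter on low values, and removal of high Scrublet scores or of cells with other-lineage UMIs.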

Additional observations from a re-analysis of the deposited data

How the results depend on the processing

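The size of the S phase share depended on its limit. It was 16.5% at day +7 and 24.3% at day +14 with a limit of 10 per 10000 UMIs, 8.49% and 14.4% with a limit of 20, and 11.1% at day +7 after thinning, and it was higher at day +14 with each alternative run. For the day comparison within S phase cells, scaling by the median ratio gave log2 ratios of -1.60 for histones, -0.12 for origin licensing, -0.087 for thymidylate and deoxynucleotide synthesis (reversed), 0.15 for the oxidative PPP, 0.41 for glycolysis and -1.15 for cytotoxic genes. The mean of per-cell CPM gave -1.59 for histones and 0.51 for glycolysis. The gate on thinned cells gave -1.42 for histones, 0.57 for glycolysis and -1.07 for cytotoxic genes, a limit of 20 gave -1.06 for cytotoxic genes, and removal of cells with other-lineage UMIs gave -1.50 for histones. With every gene of 1 UMI or more, 381 genes were at least 2-fold higher and 275 lower at day +14. For S phase over cells below both limits at day +7, scaling by the median ratio gave 1.96 for origin licensing, 3.05 for histones and -0.023 for the oxidative PPP, and the mean of per-cell CPM gave 2.30 and 3.21 for origin licensing and histones, and 2.19 and 3.04 at day +14. Of 160 values over the 20 genes named for the day comparison, 2 reversed, both of Chil3, with 0.71 at a limit of 20 and 0.82 without other-lineage cells. A further 24 values lay outside the counting interval of the main ratio and 134 lay within it. Among the 24, removal of other-lineage cells gave -6.29 for Ifitm2 and -4.26 for Fcer1g. The gate on thinned cells, and the removal of other-lineage cells or of the cell with the most UMIs in the day comparison, were chosen after seeing the data. With 1 library per day there is no replicate to leave out, and depth limits single cells near the gate and genes under 10 CPM. No paired analysis was possible because each day has 1 library and no test was run.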
